A study of Mus musculus with 6 samples.

Results

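The RGD-binding integrins are cell surface receptors for matrix proteins that carry the tripeptide arginine-glycine-aspartate. Their genes were read here from 12 array probes named Itgav, Itga5, Itga8, Itgb1, Itgb3, Itgb5, Itgb6 or Itgb8, which are 12 of 55681 probes and 8 of 34797 gene names on the array. The choice used gene names only and no measured value. The arrays compared immortalized murine embryonic fibroblasts (MEF), which are connective tissue cells grown out of mouse embryos, of 3 groups with 2 arrays each. The groups were wild type (WT) MEF of strain W4, MEF with a knockout of TIA1 (TIA1 KO) of strain BALB/c and MEF with a knockout of TIAR (TIAR KO) of strain C57BL/6. TIA1 and TIAR, the latter encoded by Tial1, are related RNA-binding proteins that act on splicing and translation, and the study asked how the loss of each alters RNA levels. No group received a treatment. The paper calls the 2 samples of a group independent experiments in its methods and different biological samples in its results. Nothing in the sources used here says whether a group held more than 1 cell line, so genotype, strain and line cannot be told apart. The same holds for TIA1 loss and the row of the slide, since the TIA1 KO arrays lay in the second row and the other 4 arrays in the first.

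An integrin is a pair of an α and a β chain. The αv chain (Itgav) pairs with the β1, β3, β5, β6 or β8 chain, and the β1 chain (Itgb1) also pairs with α5 (Itga5) and α8 (Itga8). These receptors tie matrix proteins such as fibronectin, vitronectin and osteopontin to the actin cytoskeleton, and those with αv can also release TGF-β from its latent complex. In fibroblasts they carry adhesion, spreading and migration.

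These probe sequences are shown because the results below rest on them. The Itgb3 and Itgb5 probes gave the largest differences among these genes, the 2 Itgb3 probes differed in strength, and the 2 Itgb1 probes went opposite ways in TIAR KO MEF. Of the Itgb3 and Itgb5 probes the first 30 of 60 bases are given, and of the Itgb1 probes all 60. Capitals mark matches to an NPxY codon pattern, read in the probe's own direction. The pattern takes only the codon AAT for asparagine, not AAC, then codons for proline, any residue and tyrosine. In β1 tails such motifs bind talin and kindlin.
Itgb3 A_52_P553890: ccacagcaacatcagagtctttgtccattt
Itgb3 A_66_P126293: acttatgtgtgtgacgagtgtggggaaatg
Itgb5 A_51_P327796: gccagacaagaaggtatccggaagagtctg
Itgb1 A_66_P113059: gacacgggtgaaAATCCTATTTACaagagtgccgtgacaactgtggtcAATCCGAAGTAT
Itgb1 A_52_P351816: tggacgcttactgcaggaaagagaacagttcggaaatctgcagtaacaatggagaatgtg
The scanner files place the Itgb3 probes on mm9 at chr11:104531672-104531731 and chr11:104528625-104528684, plus strand, and the Itgb5 probe at chr16:33949123-33949182, plus strand. In the transcripts named by the files, NM_016780 and NM_010580, these targets start at base 5665, 2618 and 2951. The brighter Itgb1 probe, A_66_P113059, covers 5896 bases of the genome with 60 bases of sequence (chr8:131250081-131255976, plus strand), so its target is split between exons. It holds 2 matches to the NPxY codon pattern with AAT, which was found in 65 of 55681 probes (0.117%). Probes with AAC for asparagine were not counted. The second Itgb1 probe lies upstream at chr8:131246349-131246408 and starts at base 1840 of NM_010578, against base 2631 for the brighter one. No annotation of mm9 was used, so exon and coding limits are not given for any probe.

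Values are normalized log2 intensities of a probe, and a gene is read from its brightest probe, the one with the highest mean over the 6 arrays. The scanner software rates each spot as well above background or not, and a probe took that rating where at least 50% of its spots had it. Since a probe's brightness depends on its sequence, levels are compared between groups for the same probe and never between probes. A probe was called when limma gave a Benjamini-Hochberg adjusted p under 0.05 over all 55681 probes and the fold change was above 2. These calls covered 3.54% of all probes in TIA1 KO against WT MEF, 5.76% in TIAR KO against WT MEF and 3.35% in TIAR KO against TIA1 KO MEF. Both knockout comparisons share the WT arrays. By array, 16021 to 26295 probes had the rating, and the TIA1 KO arrays had the fewest. Their median spot intensity was 458 and 218 against 119 to 152 in the other 4 arrays.

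Of the 8 genes, 5 were measured well above background on all 6 arrays, namely Itgav, Itga5, Itgb1, Itgb3 and Itgb5. Itga8 and Itgb8 were not well above background on any array, and Itgb6 was so on 1 TIAR KO array. Itgb3 and Itgb5 rose in both knockout lines, and the other 6 genes were not called in either. The 2 of 8 genes called higher in TIA1 KO MEF stand beside 2.88% of all gene names called higher by their brightest probe, 1.63% called lower and 4.51% called in all. The 2 of 8 called higher in TIAR KO MEF stand beside 4.36% higher, 2.82% lower and 7.18% in all. Among gene names well above background on all 4 arrays of a comparison, 7.49% were called for TIA1 KO and 10.8% for TIAR KO cells, against 2 of these 5 genes in each. The median log2 fold change of the 8 genes was 0.76 in TIA1 KO MEF, where that of all gene names was −0.07, and 0.55 in TIAR KO MEF, where that of all gene names was −0.01.

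**Figure D1:**
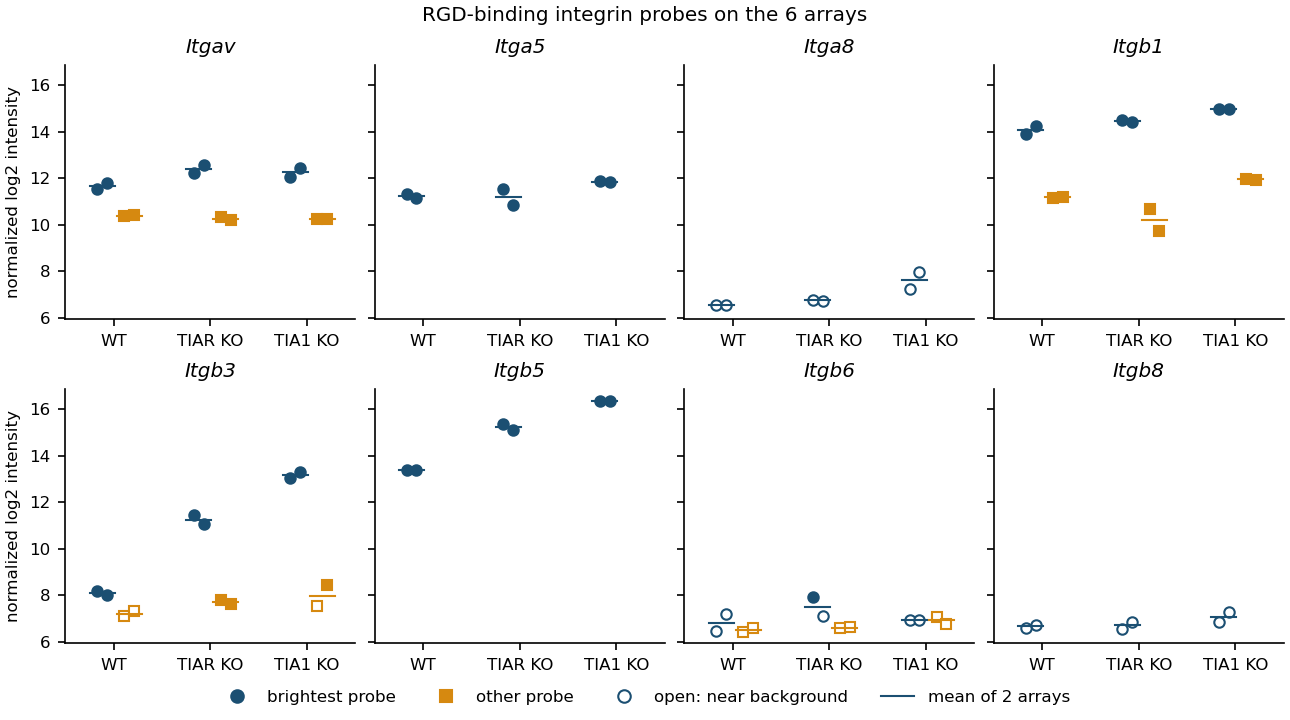
Normalized log2 intensity (vertical axis) of the 12 probes on the 2 arrays of each group, 1 panel per gene. Circles are the brightest probe and squares the other probe of a gene, filled where the probe was well above background and open where it was not, and short lines are means of 2 arrays. The brightest probes of Itgb3 and Itgb5 climb from WT to TIAR KO to TIA1 KO MEF with no overlap, while those of Itga8, Itgb6 and Itgb8 are near background except Itgb6 on 1 TIAR KO array.

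Itgb3 encodes the β3 chain, which joins αv in the vitronectin receptor of fibroblasts and αIIb in the fibrinogen receptor of platelets. Its brightest probe read 8.17 and 8.01 on the log2 scale in WT MEF. It read 11.44 and 11.05 in TIAR KO MEF, and 13.05 and 13.29 in TIA1 KO MEF. All 4 knockout arrays lay above both WT arrays, and both TIA1 KO arrays lay above both TIAR KO arrays. The probe was well above background on all 6 arrays. Itgb3 was 33.9-fold higher in TIA1 KO than in WT MEF (log2 fold change 5.08 ± 0.18 (SE), n = 2 and 2 arrays, limma adjusted p = 0.00392). In TIAR KO MEF it was 8.93-fold higher than in WT MEF (3.16 ± 0.19, limma adjusted p = 0.00102). Since this is bulk RNA of whole cultures, more cells with the transcript and more transcript per cell cannot be told apart.

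The other Itgb3 probe, which lies 5′ of the brightest one in the transcript, was dim. It read 7.09 and 7.33 in WT MEF, both near background, 7.81 and 7.61 in TIAR KO MEF, and 7.55 and 8.42 in TIA1 KO MEF, of which the lower one was also near background. Its knockout arrays also lay above both WT arrays. Its log2 fold changes were 0.78 ± 0.34 for TIA1 KO and 0.50 ± 0.17 for TIAR KO cells, and neither was called (limma adjusted p = 0.226 and 0.175). With each WT array set to its probe value or to its lowest value well above background, whichever was higher, this probe was at least 1.37-fold higher for TIAR KO cells, and no bound is given for TIA1 KO cells, where it was well above background on 1 array only. Without that array, TIA1 KO replicate 2, it was 0.34 above WT MEF. Its values depended on the background correction, since the scanner software's processed intensities gave 4.20 and 2.25 (limma adjusted p = 0.0587 and 0.0851), where the median of all probes was 1.98 and −0.04. The size of the Itgb3 difference thus differed between the 2 probes in the main values. In that setting, probes not well above background on either TIA1 KO array also read higher in TIA1 KO than in WT MEF. They were Itga8 (3.82), Itgb8 (3.71) and the brighter and the other Itgb6 probe (2.04 and 3.02). The value of 4.20 is therefore not read as closer agreement between the 2 Itgb3 probes, which was not tested. Reading Itgb3 from the median of its 2 probes gave 2.93 for TIA1 KO and 1.83 for TIAR KO cells, both called (limma adjusted p = 0.0121 and 0.00305).

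Itgb5 encodes the β5 chain, which pairs with αv and binds vitronectin. Its single probe read 13.38 and 13.37 in WT MEF, 15.34 and 15.09 in TIAR KO MEF, and 16.34 and 16.36 in TIA1 KO MEF. The 3 groups did not overlap, in the same order as for Itgb3. Itgb5 rose 7.88-fold in TIA1 KO MEF (log2 fold change 2.98 ± 0.15, limma adjusted p = 0.00613) and 3.59-fold in TIAR KO MEF (1.84 ± 0.16, limma adjusted p = 0.00313). No spot was saturated on any array, and none of the 12 probes had a spot marked as an outlier.

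The TIAR KO calls of Itgb3 and Itgb5 held under each of 15 alternative settings, with log2 fold changes between 1.83 and 4.06 for Itgb3 and between 1.36 and 1.97 for Itgb5. The TIA1 KO calls held in 12 of 15. Without WT replicate 1, Itgb3 was 5.16 and Itgb5 2.98 on the log2 scale, with limma adjusted p = 0.236 and 0.239. Without WT replicate 2 they were 5.0 and 2.97, with limma adjusted p = 0.228 and 0.238. In both of these fits no probe on the array was called. With the scanner software's processed intensities, Itgb3 was 5.81 and Itgb5 2.78 (limma adjusted p = 0.0529 and 0.0587), again with no probe called on the whole array. Scaling to a common array median, without loess or quantile steps, kept both calls at smaller log2 fold changes, 3.86 for Itgb3 and 1.41 for Itgb5 (limma adjusted p = 2.68e-13 and 0.0156). In that fit every probe of the integrins studied here had the same SE of 0.48. Its p-values thus do not reflect a probe's own spread between arrays, and 16041 probes were called on the whole array.

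**Figure D2:**
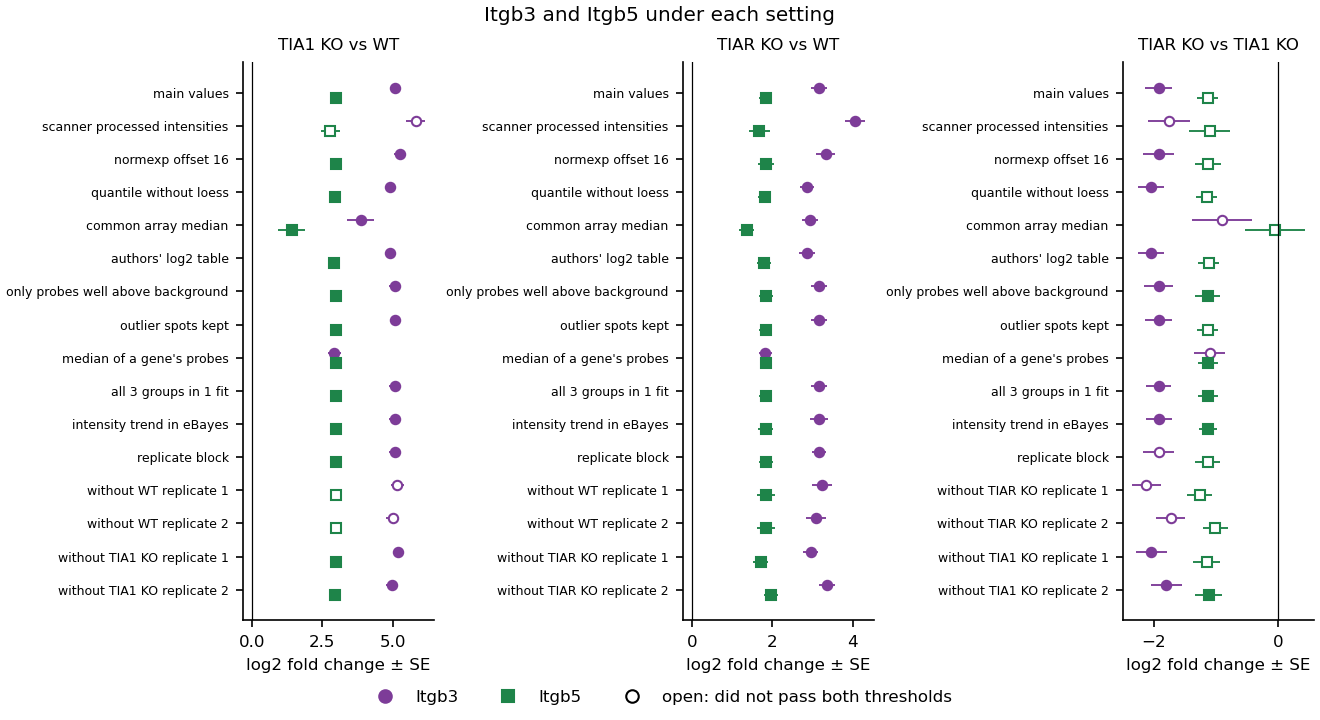
Log2 fold change with its SE (horizontal axis) of Itgb3 (circles) and Itgb5 (squares) under the main values and 15 alternative settings (vertical axis), 1 panel per comparison. Filled points passed both thresholds. Every value against WT MEF lies above 0 and every TIAR KO minus TIA1 KO value lies below 0, while calls are lost only in the comparisons that include TIA1 KO MEF.

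The direct comparison of the knockouts asked whether the 2 lines differed from each other. Itgb3 was 3.79-fold lower in TIAR KO than in TIA1 KO MEF (log2 difference −1.92 ± 0.22, limma adjusted p = 0.0334). Itgb5 differed by −1.13 ± 0.17 on the log2 scale (95% interval −1.60 to −0.67), which was not called (limma adjusted p = 0.0569). Thus 1 of the 8 genes was called lower and none higher, where 2.12% of all gene names were called lower, 2.06% higher and 4.18% in all, and 6.71% of those well above background on all 4 arrays. The median over the 8 genes was −0.58, against 0.04 for all gene names. The call of Itgb3 held in 9 of 15 settings. It was lost without TIAR KO replicate 1 (−2.12, limma adjusted p = 0.265), without TIAR KO replicate 2 (−1.73, limma adjusted p = 0.299), and when all arrays were scaled to a common median (−0.90, limma adjusted p = 0.196). It was also lost with processed intensities (−1.75, limma adjusted p = 0.0695) and with the median of both probes (−1.10, limma adjusted p = 0.103), and the sixth loss was with arrays paired by number (−1.92, limma adjusted p = 0.131). Itgb5 passed the thresholds in 5 of the 15 settings, among them the fit of all 3 groups together (−1.13, limma adjusted p = 0.0159) and that without TIA1 KO replicate 2 (−1.12, limma adjusted p = 0.0249), and was −0.05 under common-median scaling.

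Itgav encodes the αv chain, the partner of both β3 and β5. Its brightest probe, at chr2:83646133-83646192 (mm9, plus strand), read 11.53 and 11.78 in WT MEF, 12.22 and 12.58 in TIAR KO MEF, and 12.07 and 12.44 in TIA1 KO MEF. The knockout arrays lay above the WT arrays, and the 2 knockout groups overlapped. The log2 fold changes of 0.60 ± 0.21 for TIA1 KO and 0.74 ± 0.19 for TIAR KO cells were not called (limma adjusted p = 0.171 and 0.0934), with 95% intervals of 0.02 to 1.17 and 0.26 to 1.22. The other Itgav probe, which lies 5′ of it in the transcript, read 10.36 and 10.42, 10.33 and 10.19, and 10.24 and 10.23 in WT, TIAR KO and TIA1 KO MEF. Its log2 fold changes of −0.16 ± 0.15 and −0.13 ± 0.15 in TIA1 KO and TIAR KO MEF pointed the other way and were not called (limma adjusted p = 0.507 and 0.712). Under common-median scaling the brightest probe turned to −0.97 in TIA1 KO MEF, and the median of all probes went from −0.09 to −0.68. The other Itgav probe was called lower there in that setting (−1.48 ± 0.48, limma adjusted p = 0.0108).

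Itgb1 encodes the β1 chain, shared by the fibronectin, collagen and laminin receptors. Its brighter probe read 13.89 and 14.25 in WT MEF, 14.52 and 14.43 in TIAR KO MEF, and 14.98 and 14.96 in TIA1 KO MEF. The 3 groups did not overlap, but the log2 fold changes of 0.90 ± 0.19 for TIA1 KO and 0.40 ± 0.18 for TIAR KO cells were not called (limma adjusted p = 0.0913 and 0.299). On the second probe the WT arrays were at 11.14 and 11.21 and the TIA1 KO arrays at 11.99 and 11.94. In TIAR KO MEF it read 9.72 on replicate 2 and was higher by 0.98 on replicate 1, with both below the WT arrays. Both probes were higher in TIA1 KO MEF by like amounts, the second by 0.79 ± 0.15 (limma adjusted p = 0.079). In TIAR KO MEF they differed in sign, since the second probe was −0.96 ± 0.33 there (limma adjusted p = 0.184). Against TIA1 KO MEF the brighter probe was −0.50 ± 0.15 and the second −1.76 ± 0.36 in TIAR KO MEF (limma adjusted p = 0.173 and 0.101). The direction of Itgb1 in TIAR KO MEF thus depends on the probe, and a difference between the probes was not tested. Leaving out TIAR KO replicate 1 gave a called fall of the second probe against WT MEF (−1.45, limma adjusted p = 0.033), where all 4 arrays gave no call. Against TIA1 KO MEF the second probe was called lower in 4 settings, namely without TIA1 KO replicate 2 (−1.78, limma adjusted p = 0.043) and, at −1.76, with only probes well above background, all 3 groups in 1 fit or an intensity trend (limma adjusted p = 0.0457, 0.0355 and 0.0447). Common-median scaling turned the brighter and the second probe to −0.69 and −0.68 in TIA1 KO MEF.

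Itga5 encodes the α5 chain, which forms the main fibronectin receptor with β1. Its probe, at chr15:103175022-103175081 (mm9, minus strand), read 11.33 and 11.15 in WT MEF, 11.53 and 10.85 in TIAR KO MEF, and 11.87 and 11.84 in TIA1 KO MEF. The TIAR KO arrays lay on either side of the WT arrays, and the TIA1 KO arrays lay above all others. The log2 fold changes were 0.61 ± 0.16 in TIA1 KO MEF (limma adjusted p = 0.116) and −0.05 ± 0.26 in TIAR KO MEF (95% interval −0.70 to 0.60, limma adjusted p = 0.949). Under common-median scaling Itga5 was −0.90 in TIA1 KO MEF.

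The 3 remaining genes were close to the background of the arrays, and no change in them could be measured well. Itga8 encodes the α8 chain, the nephronectin receptor subunit with β1. It read 6.54 on both WT arrays, 6.78 and 6.73 in TIAR KO MEF, and 7.26 and 7.99 in TIA1 KO MEF, near background throughout. Its log2 difference of 1.08 ± 0.29 in TIA1 KO MEF was not called (limma adjusted p = 0.121) and became called without TIA1 KO replicate 1 (1.45, limma adjusted p = 0.0321), when it was also called lower in TIAR KO than in TIA1 KO MEF (−1.23, limma adjusted p = 0.0348). Itgb6 and Itgb8 encode chains that pair with αv and release TGF-β, Itgb6 mainly in epithelia. Itgb6 read between 6.46 and 7.93 by its brighter probe, whose highest value came from TIAR KO replicate 1, and between 6.43 and 7.06 by the other. Itgb8 read between 6.55 and 7.26. Neither gene was called in any of the 3 comparisons, although processed intensities gave Itgb8 and Itga8 as lower in TIAR KO than in TIA1 KO MEF (−3.47 and −4.23, limma adjusted p = 0.0448 for each). In that setting the median of all probes was −1.85 in the same comparison, and 8.28% of the called probes were higher in TIAR KO MEF.

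**Figure D3:**
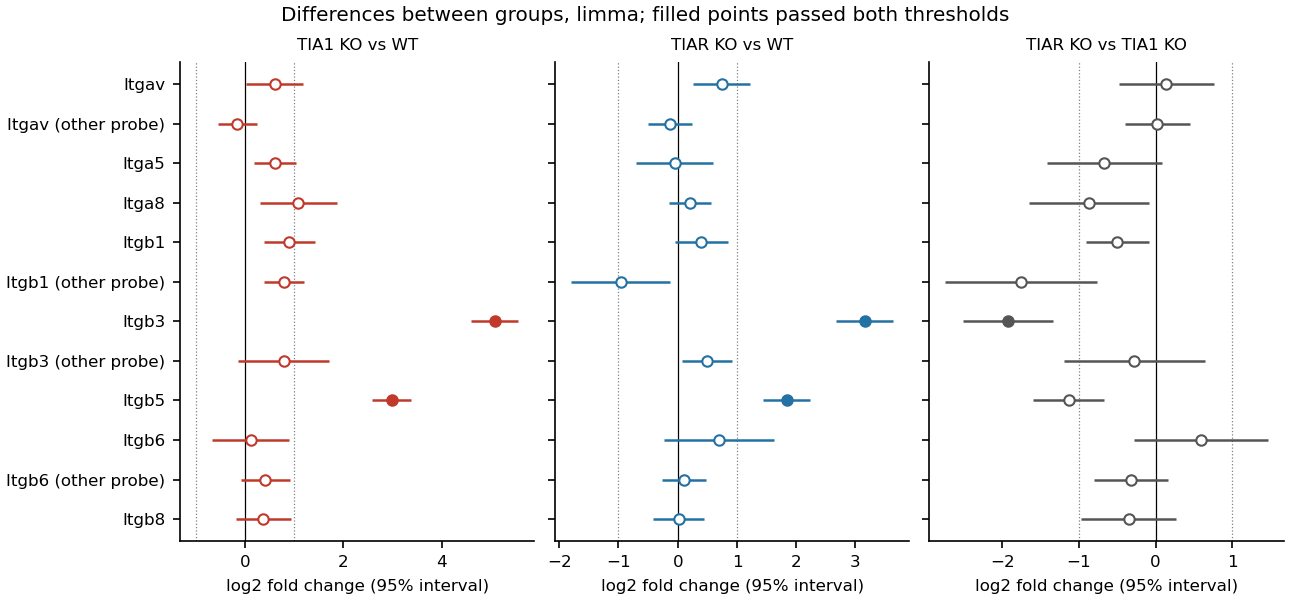
Log2 fold change (horizontal axis) of each of the 12 probes with its 95% interval, 1 panel per comparison. Filled points passed both thresholds, dotted lines mark a fold of 2, and "other probe" marks the dimmer probe of a gene. Itgb3 (5.08 and 3.16) and Itgb5 (2.98 and 1.84) stand apart from the other probes against WT MEF, and the dimmer Itgb1 probe points below 0 in TIAR KO MEF.

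By the looser measure of arrays that do not overlap between groups, 7 of 8 genes differed in TIA1 KO MEF against 65.7% of all gene names, 5 of 8 in TIAR KO MEF against 50.9%, and 6 of 8 between the knockouts against 61.3%. With 2 arrays per group such a pattern is common on the whole array, so it sets no gene here apart.

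The genes for proteins with an RGD site, or known to bind these receptors, were examined as a list of 39. Of these, 17 had a probe well above background on all 6 arrays. The list was chosen with earlier results of these data known, so its shares of calls are descriptive and no test. In TIA1 KO MEF 13 were called higher and none lower, with a median log2 fold change of 0.76, beside 2.88% higher and 1.63% lower among all gene names. They were Fn1, Thbs1, Thbs2, Fbn1, Fbn2, Fbln5, Edil3, Tgfb3, Ltbp3, Lrrc32, Ctgf, Tgfbi and Nid1, and none of the 13 was called without either WT array or with processed intensities. In TIAR KO MEF 15 were called higher and 3 lower, with a median of 0.14, beside 4.36% and 2.82% among all gene names. Fn1, the gene of fibronectin, rose in both, by 2.74 ± 0.16 for TIA1 KO and 2.20 ± 0.15 for TIAR KO cells (limma adjusted p = 0.00874 and 0.00151). Among them Lrrc32, whose product holds latent TGF-β on the cell surface, and Fbln5, an elastic fibre protein, had the largest fitted rises, that of Fbln5 within error of Thbs2 (5.46 ± 0.16, limma adjusted p = 0.00363). Lrrc32 read 7.06 and 6.85 in WT, 7.44 and 7.54 in TIAR KO, and 14.81 and 15.06 in TIA1 KO MEF, so that it was high in the TIA1 KO line only (7.98 ± 0.18, limma adjusted p = 0.00362; TIAR KO against TIA1 KO −7.45 ± 0.18, limma adjusted p = 0.00464). Only 1 of its WT arrays was well above background. Fbln5 rose by 5.76 ± 0.23 for TIA1 KO and 3.15 ± 0.34 for TIAR KO cells (limma adjusted p = 0.00473 and 0.00642).

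Tgfbi, a secreted adhesion protein induced by TGF-β, and Fbn2, the gene of fibrillin-2, were among the genes that rose in TIAR KO MEF, Tgfbi by the largest fitted value. Tgfbi read 8.68 and 8.97 in WT, 15.75 and 15.81 in TIAR KO, and 13.01 and 12.88 in TIA1 KO MEF, a rise of 6.95 ± 0.16 in TIAR KO MEF (limma adjusted p = 0.000176). It was higher in TIAR KO than in TIA1 KO MEF by 2.84 ± 0.16 (limma adjusted p = 0.00892), the opposite order to Itgb3. Fbn2 was at least 11.4-fold higher in TIAR KO than in WT MEF, where it was near background (limma adjusted p = 0.000307). Spp1, the gene of osteopontin, fell. It read 15.71 and 15.40 in WT, 11.09 and 11.38 in TIAR KO, and 15.98 and 16.04 in TIA1 KO MEF, so it dropped by 4.32 in TIAR KO MEF alone (SE 0.19, limma adjusted p = 0.00044) and was 27.4-fold lower there than in TIA1 KO MEF (limma adjusted p = 0.00581). Egfl7, which is secreted by endothelium and other cells, fell by 1.99 in TIAR KO MEF (SE 0.27, limma adjusted p = 0.0137). Between the knockouts 3 ligand genes were called higher and 10 lower in TIAR KO MEF, with a median of −0.46, beside 2.06% and 2.12% among all gene names, and no call was left without either TIAR KO array. Nid1, the basement membrane protein nidogen-1, was among the 3 higher ones (1.43 ± 0.17, limma adjusted p = 0.0379), a call lost in 7 of 15 settings.

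**Figure D4:**
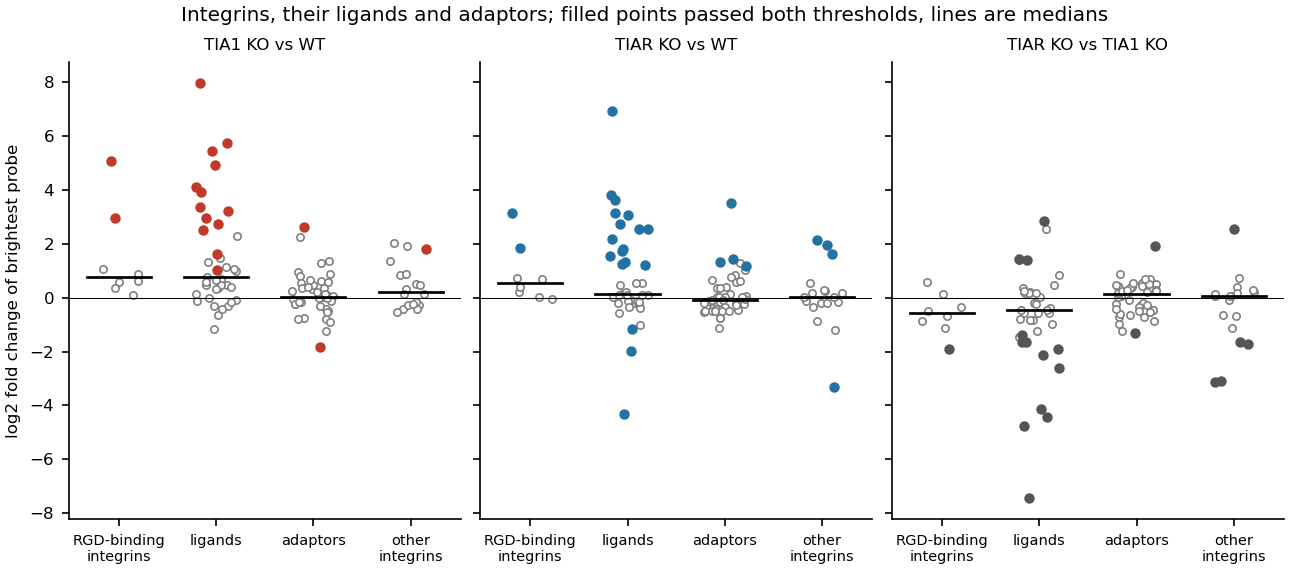
Log2 fold change (vertical axis) of the brightest probe of each gene, for the 8 RGD-binding integrins, 39 genes of ligands, 42 of adhesion adaptors and 18 other integrin subunits, 1 panel per comparison. Filled points passed both thresholds and black lines are medians. The ligands hold most of the filled points, and the adaptors lie around 0.

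Adaptors and regulators tie the integrin tails to actin and to signalling. The 43 listed names stood for 42 genes, since Tenc1 and Tns2 are names of 1 gene, and all 42 were on the array. Of these, 32 were well above background on all 6 arrays. In TIA1 KO MEF 1 was called higher and 1 lower, and in TIAR KO MEF 4 were called higher and none lower, with medians of 0.04 and −0.07. These 2 and 4 of 42 stand beside 4.51% and 7.18% of all gene names called, so the list is not set apart by its count. Common-median scaling, which lowered the median of all probes in TIA1 KO MEF, called 23 adaptors lower there. Tns1, the gene of the focal adhesion protein tensin-1, read 10.63 and 10.58 in WT, 14.20 and 14.05 in TIAR KO, and 13.22 and 13.28 in TIA1 KO MEF. It rose by 2.64 ± 0.15 for TIA1 KO and 3.52 ± 0.15 for TIAR KO cells (limma adjusted p = 0.00796 and 0.000377). Ptk2b, a kinase related to focal adhesion kinase, rose by 1.45 ± 0.21 in TIAR KO MEF (limma adjusted p = 0.0167), a call lost in 4 of 15 settings, among them those without WT replicate 2 or either TIAR KO array (0.96 to 2.18 over all settings). Lims2, a partner of integrin-linked kinase, was at least 3.26-fold lower in TIA1 KO than in WT MEF (limma adjusted p = 0.0378) and at least 3.45-fold higher in TIAR KO than in TIA1 KO MEF (limma adjusted p = 0.0348). Each of these 2 Lims2 calls was lost in 5 of 15 settings, and the call of Tns1 in TIA1 KO MEF in 4 of 15. Tenc1, a tensin family gene, was the 1 adaptor called lower in TIAR KO than in TIA1 KO MEF (−1.32 ± 0.15, limma adjusted p = 0.0354), a call lost in 7 of 15 settings, at −0.21 with common-median scaling.

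The 18 other integrin subunits listed serve receptors for collagens, laminins, cell surface ligands and other proteins, and include the platelet chain αIIb. Of these 1 was called higher in TIA1 KO MEF, and 3 were called higher and 1 lower in TIAR KO MEF, beside 4.51% and 7.18% of all gene names called in either direction. The 1 in TIA1 KO MEF was Itgam, the αM chain of leukocytes (1.82 ± 0.24, limma adjusted p = 0.0415), whose direction turned to −0.52 when the median of its probes was used and whose call held in 6 of 15 settings. In TIAR KO MEF Itga1, the α1 chain of a collagen receptor, rose by 2.15 ± 0.20 (limma adjusted p = 0.00379), with 1 of its WT arrays near background and 1.35 to 4.16 over all settings, and Itga9 was at least 3.19-fold higher (limma adjusted p = 0.00268). Itgb7, the β7 chain of lymphocytes, fell by 3.32 there (SE 0.15, limma adjusted p = 0.000444), from 13.34 and 13.20 in WT to 9.90 and 10.00 in TIAR KO MEF, while TIA1 KO MEF read 13.11 and 12.99. Between the knockouts 1 was called higher and 4 lower in TIAR KO MEF, beside 2.06% and 2.12%. Itga1 was at least 3.79-fold higher there (limma adjusted p = 0.0316), Itga7, the laminin receptor α chain of muscle, was 8.72-fold lower and Itgb7 8.57-fold lower (limma adjusted p = 0.0318 and 0.0083). Between the knockouts the calls of Itga1 and Itga7 were each lost in 4 of 15 settings and that of Itgb7 in 3 of 15.

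By the distance between profiles over the 6 arrays, each centred on its own mean, the named genes most like Itgb3 among 19012 probes were Fbln2 (distance 0.339 on the log2 scale) and Srgap1 (0.569), and those most like Itgb5 were Fjx1 (0.288) and Pdgfb (0.301). For Itgav they were Cmtm6 (0.102) and Tmem177 (0.164), for Itga5 Bcr (0.147) and Yif1b (0.23), and for Itgb1 Dhrs7b (0.135) and Fmr1 (0.139). These distances describe 6 arrays in 3 groups that differ in strain and line.

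Tial1 and Tia1 were read to check the labels. Tial1 was called lower in TIAR KO MEF by its second probe (−1.58 ± 0.26, limma adjusted p = 0.0254), while its brightest probe, fitted without WT replicate 1 because that spot was an outlier, was −2.63 ± 0.87 (limma adjusted p = 0.20). The Tial1 call was lost in 4 of 14 other settings. Tia1 was not called in TIA1 KO MEF by its brightest probe (−1.47 ± 0.79, limma adjusted p = 0.288). Its other probes were −1.62 ± 0.42 and, near background in WT MEF, 0.87 ± 0.28 (limma adjusted p = 0.116 and 0.149). No Tia1 probe was thus called in TIA1 KO MEF in the main values. Fibroblast markers were present but uneven. Of 8 markers, 5 were called higher for TIA1 KO and 6 for TIAR KO cells, and their summed level was 18.03 to 18.10 in WT, 19.69 to 19.71 in TIAR KO and 19.56 to 19.67 in TIA1 KO MEF on the log2 scale. Among the defining ones, Fap was near background on all 6 arrays, Pdgfra on both WT arrays and Thy1 on 1 of them. Thy1 was also near background on both TIA1 KO arrays (7.11 and 7.48), against 14.84 and 14.74 in TIAR KO MEF. Col3a1 read 9.52 and 9.08 in WT MEF against 15.16 to 16.65 on the knockout arrays. Of 5 smooth muscle markers 2 were called higher for TIA1 KO and 4 for TIAR KO cells, with summed levels of 13.95 to 14.31 in WT, 18.03 to 18.18 for TIA1 KO and 18.69 to 18.86 for TIAR KO cells, and Myh11 was near background on all arrays. The part of these marker differences in the Itgb3 and Itgb5 results was not tested. Platelet markers, relevant because platelets carry β3, were mostly near background, with Itga2b, Gp1ba and Gp9 so on all 6 arrays and a summed level of 8.75 to 9.20. The fourth, Pf4, was well above background on 1 TIAR KO array only. It read 6.58 and 6.25 in WT, 7.29 and 7.42 in TIAR KO, and 7.51 and 7.19 in TIA1 KO MEF. Its log2 fold changes of 0.93 for TIA1 KO and 0.94 for TIAR KO cells were not called (limma adjusted p = 0.102 and 0.0384), being below a fold of 2. Of the other lists, 1 of 7 epithelial markers was called higher for TIA1 KO and 3 for TIAR KO cells, and none of 4 endothelial markers in either. Of 6 leukocyte markers 1 (Itgam) was called, in TIA1 KO MEF only. Ptprc and Emr1 were near background on all 6 arrays. Itgam and Cd68 were well above background on all 6 arrays, with Cd68 at 10.15 to 11.66, and Csf1r and Cd3e on 5 arrays each.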

How the data were processed

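RNA of 6 MEF samples was hybridized to 1-colour arrays on 1 slide. The authors deposited the scanner intensity of every spot, not normalized between arrays, with flags and mm9 positions from Feature Extraction 10.7.3.1. The authors also deposited a table of normalized log2 values, used here as an alternative to which member values differed by at most 0.47. Intensities were corrected by normexp (offset 50), log2 transformed, smoothed with loess in 1 pass against the mean array and quantile normalized. Control and outlier spots were left out, and spots of a probe averaged. No dim probe was filtered out. Each comparison was fitted on its own 4 arrays with limma 3.58.1 (lmFit, eBayes) in R 4.3.3, without covariates. The scripts were tested on simulated data, and figures used Python 3.11.15 with matplotlib 3.10.9. The genes, lists and alternatives were chosen with earlier results of these data known. Named genes were all members and, of each list, the 2 largest rises and falls among called genes well above background in the higher group. Other list genes were named after their values were seen. Differences between replicate 1 and replicate 2 were little correlated between groups (−0.0729 to 0.078 over all probes, −0.0436 to 0.0977 over probes well above background in at least 1 group). Whether samples of the same number were prepared together is not known. The number of arrays limits the precision.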

Additional observations from a re-analysis of the deposited data

Results flagged for a closer look

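Itgb3 differed between the knockouts in the direct comparison of TIAR KO with TIA1 KO MEF (log2 difference −1.92 ± 0.22, limma adjusted p = 0.0334), with all 4 knockout arrays above both WT arrays. Groups of 2 arrays are too small for a test of single arrays that stand apart.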

How the results depend on the processing

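With 2 arrays per group, leaving out 1 left a lone array that was assumed to vary like the others. In TIAR KO against WT MEF, 2 genes, Itgb3 and Itgb5, were called in every setting. In TIA1 KO against WT MEF the count of 2 became 0 with processed intensities, and 0 to 3 when 1 array was left out. Between the knockouts the count of 1 became 2 with processed intensities (Itga8 and Itgb8), 0 with common-median scaling, 2 with only probes well above background, 2 with all 3 groups in 1 fit, 2 with an intensity trend, 0 with a replicate block, and 0 to 2 when 1 array was left out. Arrays share only a number, so the block pairs nothing known.

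Of all probes, 1969 were called in TIA1 KO MEF. This became 0 with processed intensities (27765 at an unadjusted p under 0.05), 16041 with common-median scaling, 1293 with the authors' table, 3986 with all 3 groups, 671 with the replicate block, and 0 to 10735 when 1 array was left out (7202 and 7415 at an unadjusted p under 0.05 without WT replicate 1 and 2). Between the knockouts 1866 became 8416 with common-median scaling, 2925 with only probes well above background, 3183 with all 3 groups, 0 with the replicate block (10675 at an unadjusted p under 0.05), and 0 to 10086 when 1 array was left out (6318 and 6402 without TIAR KO replicate 1 and 2). Of called probes, 61.6%, 58.8% and 51.3% were higher in the 3 comparisons, against 11.6%, 33.6% and 87.1% with common-median scaling, and 8.28% between the knockouts with processed intensities. Processed intensities moved the median of all probes to 1.98 in TIA1 KO MEF and to −1.85 between the knockouts, and common-median scaling to −0.68 and 0.63.

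Signs turned for uncalled genes, for Itgam and for Fn1 between the knockouts, where it was not called. In TIA1 KO MEF common-median scaling gave Itgav −0.97, Itga5 −0.90, Itgb1 −0.69 (second probe −0.68), Itgb6 −0.10 and Itgb8 −0.03, Itgb6 was −0.25 and 0.47 without WT replicate 1 and 2, and Itgam −0.52 by the median of its probes. In TIAR KO MEF processed intensities gave Itga8 −0.40 and the second Itgb6 probe −0.16, Itgb1 was −0.06 with common-median scaling and −0.28 by the median of its probes, and Itga5 and Itgb8 were 0.04 and −0.04 without WT replicate 1, 0.29 and −0.13 without TIAR KO replicate 2, and ranged from −0.39 to 0.29 and from −0.13 to 0.17 when 1 array was left out. Between the knockouts processed intensities gave Itgav −0.02 (second probe −0.11) and Itgb6 −1.22, common-median scaling Itga5 0.43, Itgb1 0.62, Itgb8 0.07, the second Itgb6 probe 0.02 and Fn1 0.52, Itgav was −0.03 without TIAR KO replicate 2 and −0.04 without TIA1 KO replicate 1 (up to 0.33 when 1 array was left out), its second probe −0.05 and 0.10 without TIAR KO replicate 1 and 2, and the second Itgb3 probe −0.71 and 0.16 without TIA1 KO replicate 1 and 2. The cause was not tested. The 13 ligand genes called higher in TIA1 KO MEF ranged from 0 to 17 over all settings, and the 15 in TIAR KO MEF from 11 to 15.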
